A study of Mus musculus with 6 samples.

Results

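The lung library was 1 of 6 Ribo-seq libraries made from tissues of 4-week-old mice, and it is described here against the other 5 over all 18437 mRNAs with a listed value. Ribo-seq sequences the mRNA fragments that translating ribosomes protect. All 6 tissues came from wild-type C57BL/6J animals with no treatment given, and beside lung the labels name heart, kidney, brain, colon and small intestine, with 1 library each. How many animals went into a library was not given. The measure was RPKM, the reads on the coding sequence (CDS) of an mRNA scaled to the length of that CDS and to the reads on all CDSs, so it stands for the density of ribosomes on that mRNA. Each mRNA was compared on the scale log2(RPKM + 1) as the lung value minus the mean of the other 5 libraries, called the difference below. A difference of 2 or more, 4-fold on that scale, was called higher and one of -2 or less lower. Since each tissue had 1 library, no spread between replicates could be had and nothing was tested, so each value describes these libraries. An mRNA not listed in a library was taken as 0.

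The lung library held 7730352 reads on CDSs, and the others held between 4504853 and 10635031. It listed 12827 mRNAs, of which 11594 had reads. The 4 markers chosen for the lung, Sftpc, Sftpb, Scgb1a1 and Sftpa1, were highest in the library with that label, and so were the heart markers in theirs. In the remaining 4 libraries the markers went against the labels. The brain marker Snap25 had 0.761 RPKM under the label brain and 683 under small intestine, the kidney marker Umod was highest under colon (16438), the colon marker Car1 under kidney (434), and the small intestine marker Apoa4 under brain (3368). The mean of the other 5 does not depend on which tissue is which, so all 5 were kept. Every library is named by its label, so that values given for brain, for example, are those of the library labelled brain.

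Gas exchange in the lung takes place across thin alveolar type 1 cells that lie against a dense bed of capillaries. Alveolar type 2 cells secrete surfactant, a film of lipid and surfactant proteins that lowers surface tension, and they renew the type 1 cells. The conducting airways are lined by secretory cells, which release secretoglobins and detoxify inhaled compounds, and by ciliated cells that move mucus. Fibroblasts, smooth muscle and resident macrophages make up much of the rest, within a matrix rich in elastin.

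Of 18437 mRNAs, 1822 (9.88%) were higher in lung and 1398 (7.58%) lower. For 545 mRNAs (2.96%) the lung value was at least 2 log2 units above the highest of the other 5 as well, which is called above every other library below. The median difference over all mRNAs was -0.02. The higher mRNAs took 38.9% of the lung reads and between 3.24% and 9.73% of the reads of the other libraries. The 545 took 17.5% of the lung reads and at most 0.978% elsewhere. Of the 1822, 172 were exceeded by another single library. Just inside the threshold lay Ajuba, with 8.99 RPKM in lung and at most 8.52 elsewhere, and just outside it Klhl8, with 11.7 and at most 9.26, so an mRNA near the threshold could still have an equal in another library. The balance of calls depended on the scaling. Of all calls, 56.6% were higher, but 41.3% after scaling by the median of ratios over the 8649 mRNAs with reads in every library, which divided the lung values by 1.36 and moved the median over all mRNAs to -0.15. That scaling left 1156 higher and 349 above every other library. Against the heart library alone, whose markers fit its label, 2240 were higher, among them 159 of the 244 cell type list members described below, beside 172 against all 5.

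**Figure D1:**
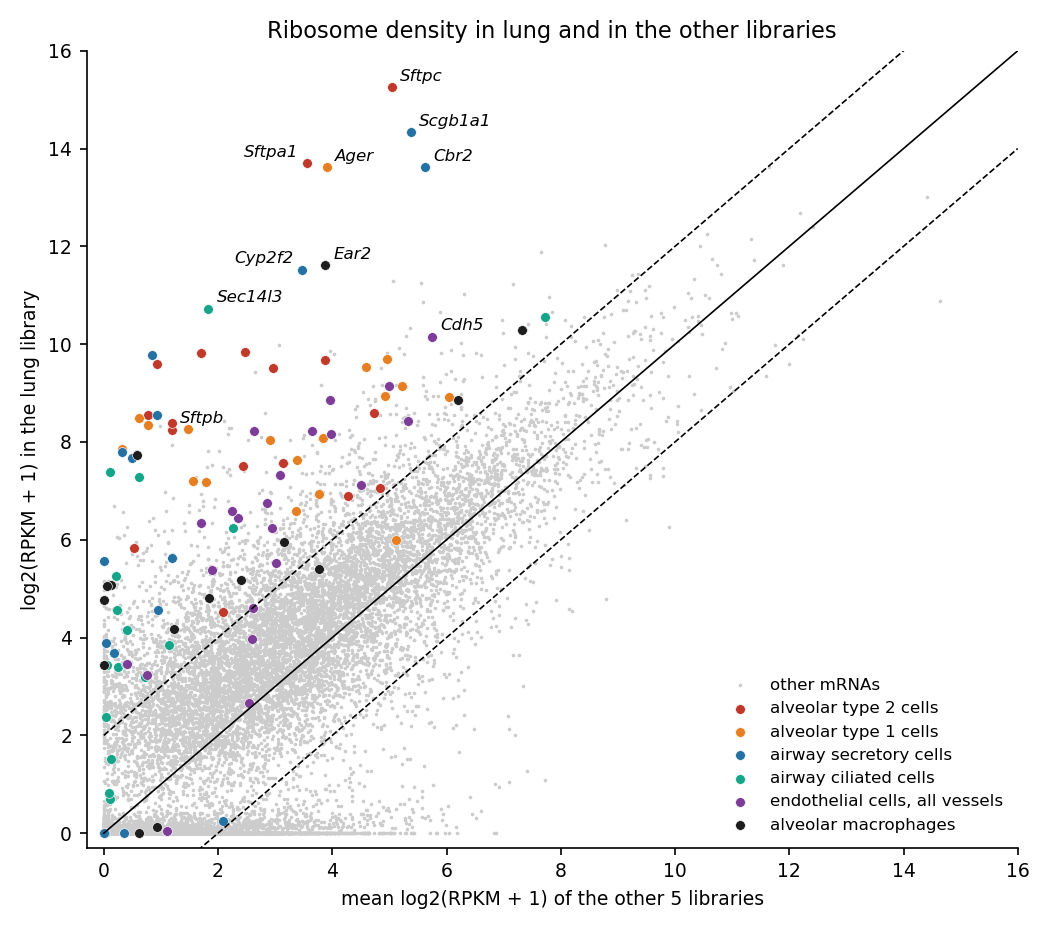
Each point is 1 of 18437 mRNAs, with its mean log2(RPKM + 1) in the other 5 libraries on the x axis and its log2(RPKM + 1) in the lung library on the y axis. The solid line marks equal values and the dashed lines a difference of 2 in each direction. Members of 6 cell type lists are coloured, and Sftpc, Scgb1a1, Sftpa1, Ager and Cbr2 stand far above the upper dashed line.

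The 20 mRNAs with the largest differences ran from 10.22 for Sftpc to 7.28 for Dynlrb2, and each was at least 5.12 log2 units above the highest other library. Of these, 6 belonged to the list of alveolar type 2 cells, 6 to airway secretory cells, 4 to alveolar type 1 cells and 2 to airway ciliated cells. The other two were Ear2, a ribonuclease of alveolar macrophages and eosinophils, and S100a9, a calcium-binding protein abundant in neutrophils. The lists were drawn up with results of these data known, so this count describes the lists and the library alike. In 15 of the 20 the next highest library was heart, where the level was a median 0.736% of the lung level and at most 2.86%. In the library labelled small intestine the median was 0.0162%. The source of these reads outside the lung was not tested.

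**Figure D2:**
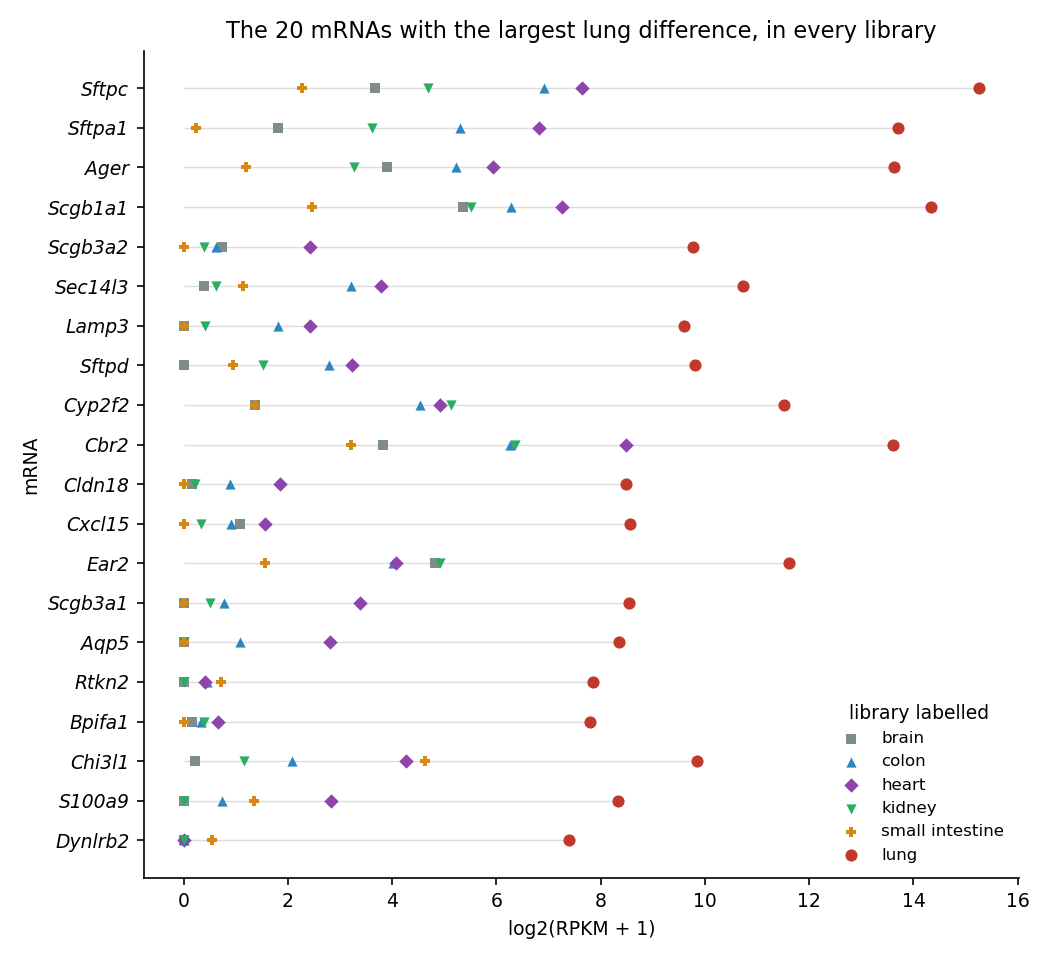
The 20 mRNAs with the largest lung difference are shown in rows, with log2(RPKM + 1) on the x axis and 1 symbol for each library. Red circles mark the lung library, which lies to the right of every other symbol in each row, and purple diamonds mark heart, the next highest in 15 rows.

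By density, the 10 leading mRNAs in lung took 8.23% of its reads. Sftpc, Scgb1a1, Sftpa1, Ager and Cbr2 were among them, beside mRNAs of general use such as Ptma, which encodes prothymosin alpha, and Eef1a1, the elongation factor that delivers tRNA to the ribosome. Ptma had 12571 RPKM in lung, with 4777 in brain, 6256 in colon, 1338 in heart, 4200.4 in kidney and 2056 in small intestine. The mitochondrially encoded mt-Atp6, a subunit of ATP synthase, had 8268 in lung, with 18714 in brain, 16311 in colon, 36338 in heart, 30460.4 in kidney and 14382 in small intestine, so lung was the lowest of the 6. For the other leading mRNAs, Ptms (difference 0.50), Rpl41 (-0.02) and Eef1a1 (1.70), the difference stayed below the threshold.

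Across 17 cell type lists, 172 of 244 mRNAs were higher in lung and 2 were lower, with a median difference of 3.32 against -0.02 over all mRNAs. Of these, 106 were above every other library. Together they took 13.0% of the lung reads. Across 10 lists of functions, 103 of 164 were higher and 5 lower. Some of these mRNAs are also in the cell type lists, so the counts are not separate. Across 5 lists of other tissues, 7 of 45 were higher and 7 lower. The lists of heart muscle and of gut, kidney, brain and liver hold mRNAs of tissues that were themselves averaged, which works against calls of higher. Without heart, 6 of 12 heart muscle mRNAs were higher, and against heart alone 4 of 13 of the gut, kidney, brain and liver list. Counted once each, the mRNAs in any list were 413, of which 244 were higher. In a whole tissue, fewer cells of a type and less RNA per cell cannot be told apart, and neither can more mRNA and more ribosomes per mRNA, since no RNA-seq of these tissues was used here.

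**Figure D3:**
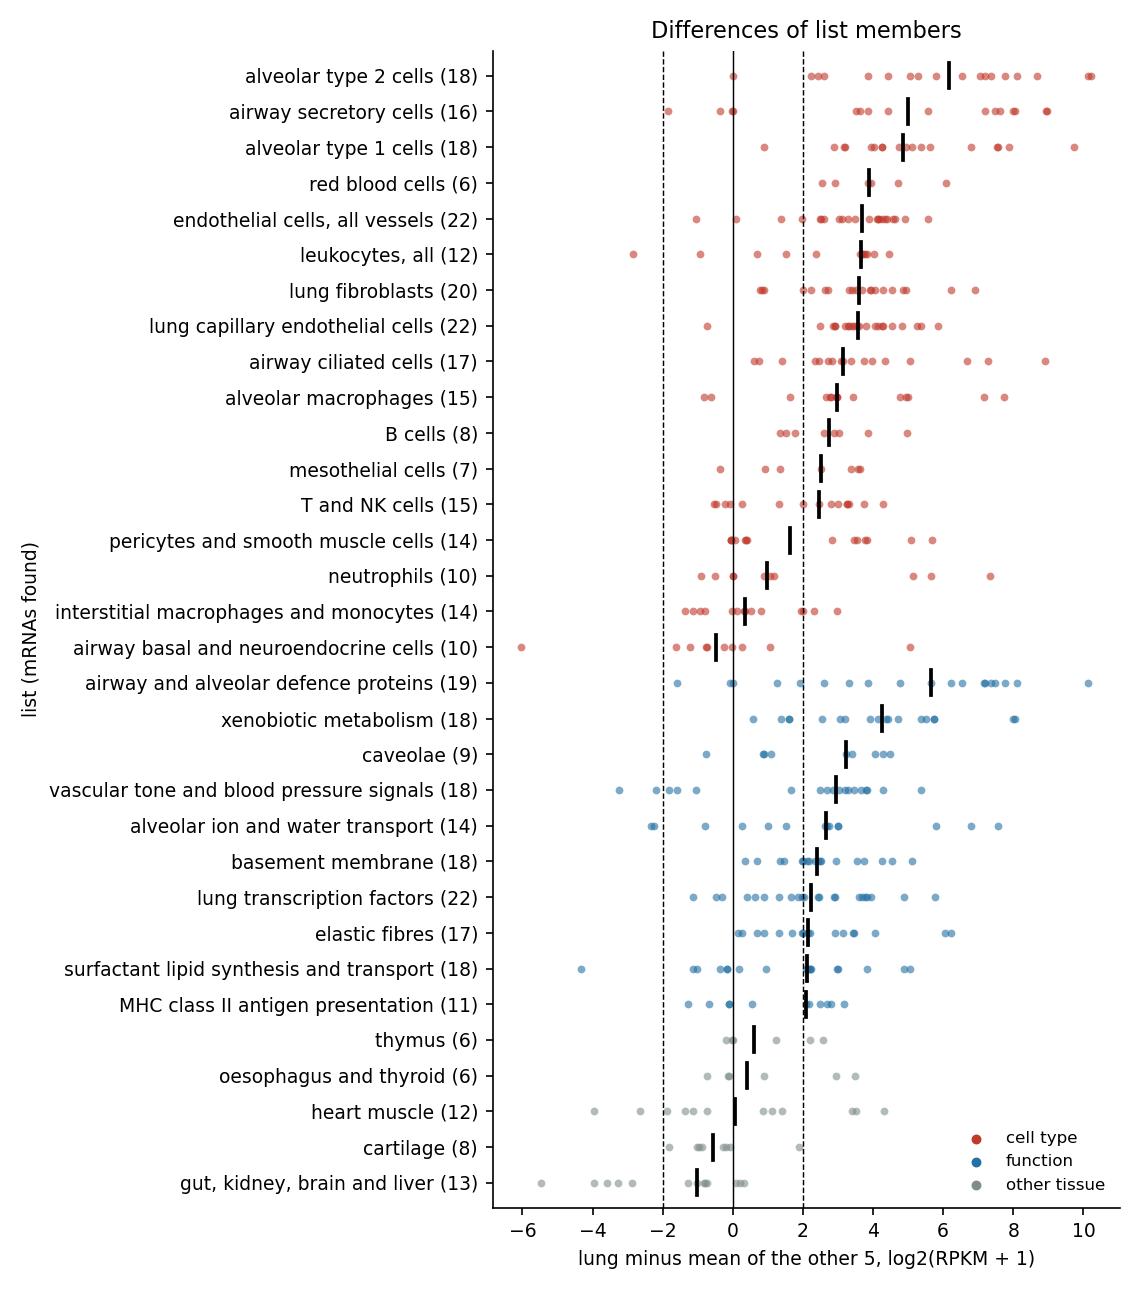
Each point is 1 member of the list named on the y axis, with its difference (lung minus the mean of the other 5, log2(RPKM + 1)) on the x axis. Black bars mark the median of each list and dashed lines a difference of 2 in each direction. Among cell types the alveolar and airway secretory lists lie furthest to the right, and the gut, kidney, brain and liver list furthest to the left.

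Alveolar type 2 mRNAs had the highest median difference of the cell type lists. Of 18 members, 17 were higher and 12 were above every other library, with a median difference of 6.18. Sftpc, which encodes surfactant protein C, a small hydrophobic peptide that spreads surfactant lipid, had 39332 RPKM in lung (95% Poisson interval 39148 to 39516, counting error only), with 11.7 in brain, 119.6 in colon, 200.1 in heart, 24.8 in kidney and 3.84 in small intestine. It took 176043 reads, the highest density of any mRNA in the library. Its gene lies at chr14:70758389-70761524 (GRCm39, minus strand). Sftpa1, encoding the collectin surfactant protein A, which binds microbes and takes part in surfactant structure, had 13266 RPKM in lung (13172 to 13360.5), with 2.53 in brain, 38.2 in colon, 112 in heart, 11.2 in kidney and 0.176 in small intestine. Sftpd, the other surfactant collectin, had 897 RPKM in lung (877 to 917), with 0 in brain, 5.94 in colon, 8.39 in heart, 1.88 in kidney and 0.933 in small intestine. Both genes lie on chromosome 14, at chr14:40853739-40858551 on the plus strand and chr14:40894170-40907128 on the minus strand. Both mRNAs were above every other library.

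Sftpb, encoding surfactant protein B, the hydrophobic protein without which lamellar bodies do not form, had 304 RPKM in lung (293 to 316), with 1.08 in brain, 1.18 in colon, 6.59 in heart, 0.816 in kidney and 0 in small intestine. Its gene lies at chr6:72281594-72291354 on the plus strand. The density on the mRNAs of the 4 surfactant proteins fell in the order Sftpc, Sftpa1, Sftpd and Sftpb in this library. Their Poisson intervals did not overlap, but these cover counting error only. Lamp3, a membrane protein of lamellar bodies, had 777 RPKM in lung, with 0 in brain, 2.52 in colon, 4.36 in heart, 0.321 in kidney and 0 in small intestine. Cxcl15, a chemokine made by lung epithelium, had 375 in lung, with 1.13 in brain, 0.886 in colon, 1.95 in heart, 0.263 in kidney and 0 in small intestine. Chi3l1, a chitinase-like protein without enzyme activity, had 919 in lung, with 0.161 in brain, 3.23 in colon, 18.2 in heart, 1.24 in kidney and 23.9 in small intestine. Only Sfta2, a surfactant-associated secreted protein, had no reads in lung, and it had none in any library. For 5 members the lung was higher than the mean of the others without being above every other library, among them Napsa and Slc34a2. The library labelled colon had 3049 RPKM of Napsa, the protease that processes pro-SP-B, against 387 in lung, and that labelled brain had 304 of the phosphate carrier Slc34a2 against 817. The list took 4.19% of the lung reads (95% Wilson interval 4.18 to 4.21%) and 0.0327 to 0.461% elsewhere.

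The promoters of these genes were read for the cores of 2 factors of lung epithelium, because Nkx2-1 and the FOXA factors are known to switch on surfactant genes. The letters searched on both strands were CTCAAG, the core that NKX2-1 prefers, and TGTTTAC, a core of forkhead factors, in RefSeq promoters of GRCm38.p6 that run from 250 bases before to 50 bases after a gene start. Windows are shown for some of the surfactant, lamellar body and secreted proteins described here whose promoter held a core upstream of the gene start. The listing is not complete, so a gene without a window, such as Scgb3a2, may still hold a core. Each window was placed in GRCm39 by an exact match of the whole promoter. It is given in the 5′ to 3′ direction of the gene, with the core (or its reverse complement) in capitals.
Sftpb, 100 bases upstream, chr6:72281485-72281508, plus strand: tggagggctCTCAAGacacaggca
Sftpb, 15 bases upstream, chr6:72281570-72281593, plus strand: agcccatgaCTCAAGtagggtact
Sftpa1, 166 bases upstream, chr14:40853570-40853593, plus strand: tgtgccaccCTCAAGggttctaag
Sfta2, 155 bases upstream, chr17:35960436-35960459, plus strand: cattaatccCTCAAGaacctctaa
Scgb3a1, 172 bases upstream, chr11:49554241-49554264, plus strand: ggcctagcaCTTGAGttcaggaga
Bpifa1, 213 bases upstream, chr2:153984578-153984601, plus strand: ccgtgaagtCTTGAGaaagcctcc
Lamp3, 92 bases upstream, chr16:19525192-19525216, minus strand: agaggtaagTGTTTACtttctcact
CTCAAG was in 5 of 14 promoters of type 2 genes and in 5 of 11 of secretory genes. It was in 4 of 19 of type 1 genes, in 5 of 17 of ciliated genes and in 5224 of 32851 promoters in all (15.9%). Sfta2 and Cldn10, listed with 0 reads and 1 read in lung, were among the genes that held it. Among the mRNAs above every other library, 68 of 476 promoters held it (14.3%), close to the share over all promoters. TGTTTAC was in 19 of those 476 (3.99%) and in 3.65% of all promoters. By list, it was in 2 of 14 promoters of type 2 genes, 1 of 19 of type 1 genes, 0 of 11 of secretory genes and 0 of 17 of ciliated genes. A match of letters is a description and not a binding site.

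Alveolar type 1 mRNAs were higher in lung for 17 of 18 members, with 8 above every other library and a median difference of 4.84. Ager, the receptor for advanced glycation end products, which type 1 cells carry on their basal side, had 12635 RPKM in lung (12563 to 12707), with 14.03 in brain, 36.3 in colon, 59.9 in heart, 8.64 in kidney and 1.302 in small intestine. Its gene lies at chr17:34816827-34819910 on the plus strand. Cldn18, a claudin that seals the alveolar barrier, had 359 in lung, with 0.119 in brain, 0.841 in colon, 2.62 in heart, 0.166 in kidney and 0 in small intestine. Aqp5, a water channel of type 1 cells, had 326 in lung, with 0 in brain, 1.12 in colon, 5.99 in heart, 0 in kidney and 0 in small intestine. For these 3 the highest value in any other library was 59.9 RPKM, that of Ager in heart. Rtkn2, a rhotekin family protein, had 229 RPKM in lung, with 0 in brain, 0.368 in colon, 0.337 in heart, 0 in kidney and 0.6497 in small intestine. Other members were shared with some libraries. Spock2, a proteoglycan, had 569 RPKM in lung and 1046 in the library labelled small intestine. Emp2, a tetraspan membrane protein, had 828 in lung, with 16.8 in brain, 16.3 in colon, 83.8 in heart, 44.5 in kidney and 23.1 in small intestine. Gprc5a, a retinoic acid-induced receptor, had 741 in lung and 197 in that labelled kidney. Lmo7, a junction protein, was the only member below the threshold, with 63.02 in lung and 68.04 in heart. The list took 2.28% of the lung reads and 0.0671 to 0.271% elsewhere.

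The airway secretory list divided sharply. Of 16 members, 12 were higher and all 12 of these were above every other library, while 3 had no reads in lung and 1 had a single read. Scgb1a1, the secretoglobin of club cells, had 20639 RPKM in lung (20451 to 20829), with 40.2 in brain, 77.1 in colon, 153 in heart, 44.4 in kidney and 4.54 in small intestine. Its gene lies at chr19:9061000-9065326 on the minus strand. Cbr2, a lung carbonyl reductase, had 12542 in lung, with 13.2 in brain, 75.5 in colon, 358 in heart, 80.9 in kidney and 8.22 in small intestine. Cyp2f2, the cytochrome P450 that activates naphthalene in club cells, had 2942 in lung, with 1.596 in brain, 22.3 in colon, 29.4 in heart, 34.02 in kidney and 1.598 in small intestine. The other secretoglobins followed at lower density, Scgb3a2 with 872 RPKM and Scgb3a1 with 372, both below 10 RPKM in every other library. Bpifa1, a secreted defence protein of the upper airway, had 221 in lung, with 0.113 in brain, 0.266 in colon, 0.586 in heart, 0.316 in kidney and 0 in small intestine. The gel-forming mucin Muc5ac, Lypd2 and Chad were not listed in lung, where 3 reads would have given 0.0374, 1.02 and 0.361 RPKM. Cldn10, a claudin of club cells and of kidney, had 0.187 RPKM in lung, 22.1 in colon and 23.97 in small intestine.

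Ciliated cell mRNAs were higher for 14 of 17 members, 11 of them above every other library, with a median difference of 3.14. Sec14l3, a lipid-binding protein of ciliated cells, had 1692 RPKM in lung, with 0.313 in brain, 8.304 in colon, 12.8 in heart, 0.548 in kidney and 1.196 in small intestine. Dynlrb2, a dynein light chain, had 167 in lung, with 0 in brain, 0 in colon, 0 in heart, 0 in kidney and 0.454 in small intestine. Ccdc153, a coiled-coil protein of cilia, had 156 in lung, with 0.2999 in brain, 0.354 in colon, 0.3898 in heart, 0 in kidney and 2.504 in small intestine. No other library had more than 12.8 RPKM of these 3. Tppp3, a tubulin-binding protein, was spread more widely, with 1494 RPKM in lung and 198 in brain, 43.7 in colon, 259.7 in heart, 473 in kidney and 387 in small intestine. All 17 had their highest value in lung. The 3 below the threshold, Hydin, Dnah11 and Dnah9, encode very large proteins of the axoneme and were read at low density, the dynein heavy chain Dnah9 with 0.625 RPKM from 65 reads and at most 0.185 elsewhere. Of 10 basal and neuroendocrine mRNAs, 1 was higher and 1 lower, close to the shares over all mRNAs (9.88% and 7.58%), and the median was -0.49. The one that was higher was the keratin Krt15, with 55.7 RPKM in lung and at most 5.19 elsewhere. The basal keratin Krt5 had 1.78 RPKM in lung and 3.404 in the library labelled brain, and Krt14, Ngfr, Calca and Resp18 had no reads in lung. Chga, the granule protein chromogranin A, was lower, with 0.0931 RPKM from 1 read in lung and 426 in brain, 0.639 in colon, 3.08 in heart, 523 in kidney and 1268 in small intestine.

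**Figure D4:**
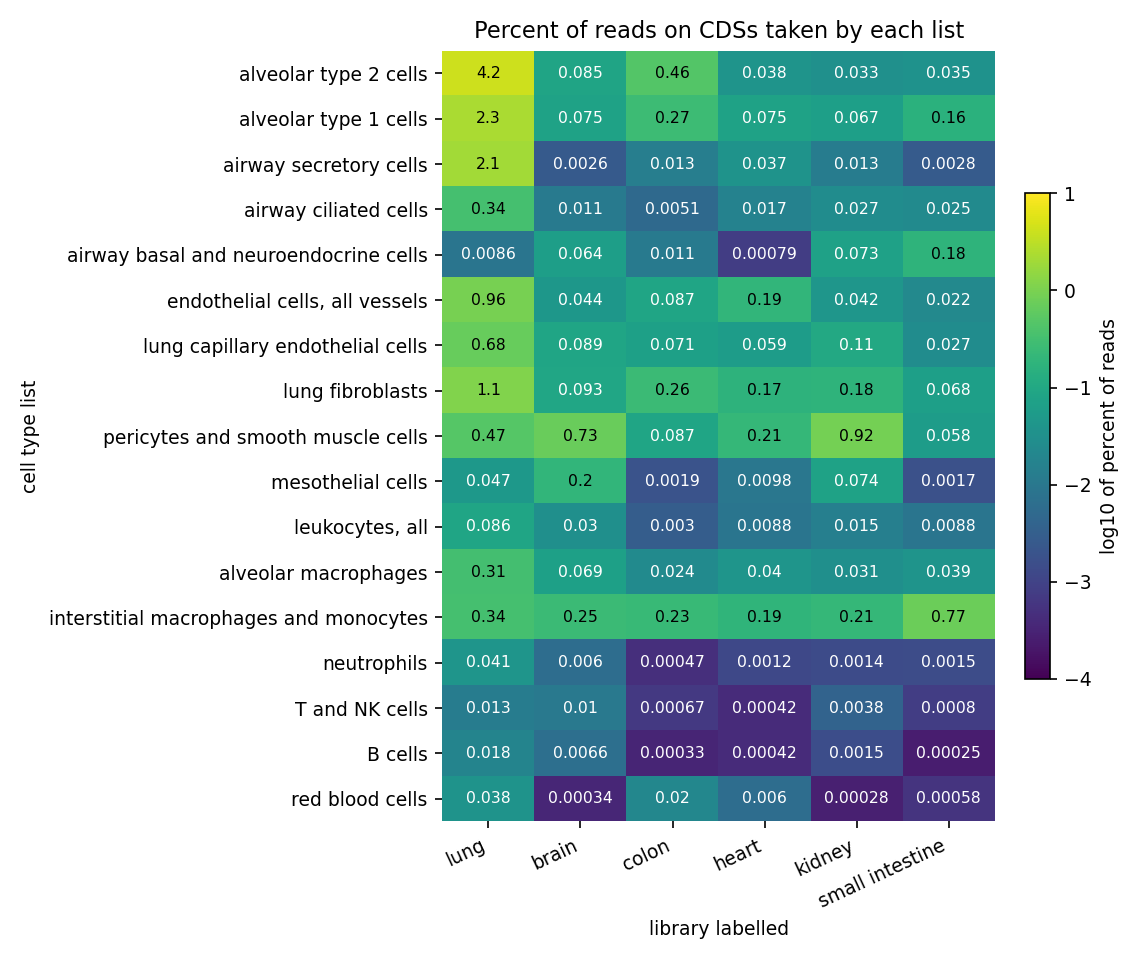
Each cell gives the percent of a library's reads on CDSs taken by the members of a cell type list, with lists in rows, libraries in columns and colour on a log10 scale. The lung column holds the highest share for most lists, with 4.2 for alveolar type 2 cells, while pericytes and smooth muscle cells, mesothelial cells, interstitial macrophages and monocytes, and airway basal and neuroendocrine cells have their highest share in another library.

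Endothelial mRNAs were higher in lung for 18 of 22 members, 12 of them above every other library, with a median difference of 3.68. Against heart alone, 13 were higher and 1 lower, with a median of 2.21. Cdh5, the cadherin of endothelial junctions, had 1139 RPKM in lung, with 45.1 in brain, 69.7 in colon, 252 in heart, 33.2 in kidney and 15.2 in small intestine. Pecam1, an adhesion molecule of the same junctions, had 565 in lung, with 39.1 in brain, 65.5 in colon, 109 in heart, 20.7 in kidney and 4.23 in small intestine. Icam2, a ligand for leukocyte integrins, had 463 in lung, with 22.4 in brain, 32.6 in colon, 43.4 in heart, 3.97 in kidney and 4.25 in small intestine. Heart was the next highest library for all 3. Clec14a, an endothelial lectin, had the largest difference of the list, with 296 RPKM in lung and 0 in brain, 15.2 in colon, 10.1 in heart, 13.4 in kidney and 2.56 in small intestine. Nos3, the endothelial nitric oxide synthase, was an exception, with 0.0359 RPKM from 1 read in lung and 0.0261 in brain, 2.71 in colon, 4.24 in heart, 1.06 in kidney and 0.145 in small intestine.

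Of the list of lung capillary endothelium, 21 of 22 members were higher and 9 above every other library, with a median of 3.57. Plvap, which forms the diaphragms of endothelial vesicles, had 576 RPKM in lung, with 93.8 in brain, 168 in colon, 40.7 in heart, 45.6 in kidney and 0.597 in small intestine. Thbd, thrombomodulin, had 472 in lung, with 19.5 in brain, 14.4 in colon, 44.97 in heart, 60.03 in kidney and 9.45 in small intestine. Prx, periaxin, which in lung marks capillary endothelium, had the largest difference of the list, with 75.3 in lung and at most 0.732 elsewhere. The fatty acid hydroxylase Cyp4b1 had 469 in lung and 134 in the library labelled brain, and Acvrl1, a receptor for bone morphogenetic proteins in endothelium, 409 and at most 33.1 in any other library. The exception was Car4, a carbonic anhydrase used as a marker of one capillary cell type, with 33.6 RPKM in lung, 371 in kidney and 83.7 in colon.

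Signals of vascular tone and blood pressure were higher for 12 of 18 members and past the threshold for lower in 2, the angiotensin precursor Agt and Ramp3, which had no reads in lung. The soluble guanylate cyclase, which senses nitric oxide, was represented by both subunits, Gucy1a1 with 554 RPKM in lung and 18.5 in brain, 67.9 in colon, 28.8 in heart, 34.4 in kidney and 62.5 in small intestine, and Gucy1b1 with 215 in lung and 16.03 in brain, 15.9 in colon, 7.88 in heart, 21.1 in kidney and 51.7 in small intestine. Both were above every other library. Calcrl, the receptor that with Ramp2 binds adrenomedullin, had 275 RPKM in lung, with 4.81 in brain, 3.04 in colon, 11.1 in heart, 13.01 in kidney and 2.45 in small intestine, and Ramp2 372, with 11.9 in brain, 47.4 in colon, 137 in heart, 25.6 in kidney and 44.99 in small intestine. Its alternative partner Ramp3 was not listed in lung, where 3 reads would have given 0.88 RPKM, and had 0 in brain, 17.1 in colon, 6.65 in heart, 9.27 in kidney and 53.4 in small intestine. Agt had 11.99 RPKM in lung, with 43.1 in brain, 89.2 in colon, 10.4 in heart, 81.3 in kidney and 203 in small intestine. Ptger4, a prostaglandin receptor, was not listed in lung. Of 9 mRNAs of caveolae, the membrane pits that are dense in lung endothelium, 5 were higher. Against heart alone, 4 were higher and 2 lower, with a median of 1.45. Cavin1 had 1196 RPKM in lung, with 127 in brain, 139 in colon, 437 in heart, 198 in kidney and 20.2 in small intestine. Cavin2 had 519 in lung, with 34.4 in brain, 21.6 in colon, 91.8 in heart, 33.9 in kidney and 1.56 in small intestine. Cav2 had 673 in lung and 248 in the library labelled colon, and Cav1, the main caveolin, 245 and at most 40 elsewhere. Cav3, the muscle caveolin, had 0.857 in lung and 35.6 in heart.

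Fibroblast mRNAs were higher for 16 of 20 members, 9 of them above every other library, with a median of 3.60. Mfap4, a microfibril-associated glycoprotein, had 2512 RPKM in lung, with 72.5 in brain, 19.5 in colon, 109 in heart, 80.1 in kidney and 2.17 in small intestine. Inmt, a methyltransferase of amines, had 1017 in lung, with 1.31 in brain, 39.2 in colon, 19.8 in heart, 9.99 in kidney and 0.991 in small intestine, the largest difference of the list. Mgp, matrix Gla protein, which prevents calcification, had 1141 in lung, with 24.1 in brain, 58.3 in colon, 175 in heart, 43.1 in kidney and 7.13 in small intestine. Ces1d, a carboxylesterase of lipid droplets, was shared, with 905 in lung and 441 in the library labelled colon. Pi16, a marker of fibroblasts around large vessels, had 6.84 in lung and 33.5 in heart. Of 14 pericyte and smooth muscle mRNAs, 7 were higher and none lower. The 7 that were not higher were the smooth muscle mRNAs Tagln, Acta2, Myh11, Cnn1, Lmod1 and Des and the pericyte proteoglycan Cspg4. Cox4i2, the lung isoform of a cytochrome c oxidase subunit, had 2427 RPKM in lung, with 23.1 in brain, 49.5 in colon, 89.8 in heart, 44.98 in kidney and 43.3 in small intestine. Tagln, transgelin of smooth muscle, had 311 in lung, with 1380.3 in brain, 242 in colon, 207 in heart, 1831 in kidney and 17.4 in small intestine, and desmin (Des) 51.2 in lung and 738 in heart. Of 7 mesothelial mRNAs, 4 were higher. Msln, mesothelin of the pleural lining, had 60.5 RPKM in lung, with 6.48 in brain, 3.65 in colon, 8.87 in heart, 5.101 in kidney and 0.763 in small intestine, and the uroplakin Upk1b 13.6 in lung. In contrast, Krt19, a keratin of many epithelia, had 182 in lung and 1607 in the library labelled brain, and Wt1 was not listed in lung.

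Elastic fibres carry the recoil of the lung. Of 17 mRNAs of elastic fibres, 10 were higher, none lower, with a median of 2.13, and 4 were above every other library. The count was 7 with scaling by the median of ratios (median 1.61) or by the 75th percentile (1.71). Without the library labelled small intestine it was 8 (median 1.75). Eln, elastin itself, had 2389.8 RPKM in lung, with 115 in brain, 55.7 in colon, 459 in heart, 408 in kidney and 47.8 in small intestine. Ltbp2, a microfibril protein related to the binding proteins of latent TGF-beta, had 313 in lung, with 12.1 in brain, 1.104 in colon, 5.72 in heart, 3.81 in kidney and 1.54 in small intestine, and Ltbp4, which guides elastin assembly, 223 in lung and 202 in heart. Of 18 basement membrane mRNAs, 12 were higher, a count that was 7 with scaling by the median of ratios and 7 without the library labelled small intestine, and 1 was above every other library. The network collagens Col4a2 and Col4a1 had 1241 and 832 RPKM in lung, and at most 368 and 336 in any other library. Col4a3, a collagen of alveolar and glomerular basement membranes, had 262 in lung and 149 in the library labelled colon, where the kidney marker Umod was highest, and under 10 in the other 4. Nephronectin (Npnt), an integrin ligand, followed the same pattern with 892 and 301, and 65.6 at most in the others. Nid2, nidogen, had the smallest difference of the list (0.35).

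Of 12 pan-leukocyte mRNAs, 8 were higher, 1 was lower and 1 had no reads. Lcp1, the actin-bundling protein of leukocytes, had 163 RPKM in lung, with 28.8 in brain, 5.78 in colon, 13.97 in heart, 23.6 in kidney and 3.06 in small intestine. Ptprc, which encodes CD45, had 69.6 in lung, with 31.5 in brain, 0.286 in colon, 4.88 in heart, 11.4 in kidney and 1.05 in small intestine, and Cd37, a tetraspanin of lymphocytes, had 42.3 in lung and at most 2.29 elsewhere. Against these, Tyrobp, an adaptor of myeloid receptors, had 0.378 RPKM from 1 read in lung and 13.5 in brain, 0.649 in colon, 9.65 in heart, 17.7 in kidney and 18.7 in small intestine, and Cd52 was not listed in lung with 16.04 in the library labelled kidney.

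Alveolar macrophage mRNAs were higher for 12 of 15 members, 6 of them above every other library, with a median of 2.97. Ear2 had 3123 RPKM in lung, with 27.1 in brain, 15.2 in colon, 15.9 in heart, 29.3 in kidney and 1.96 in small intestine, and Ear1 26.4 in lung and 0 in every other library. The sequences of these ribonucleases are close to each other, so with multi-mapped reads left out their levels are uncertain. Chil3, a chitinase-like protein of alveolar macrophages, had 212 in lung, with 0.158 in brain, 0.558 in colon, 1.84 in heart, 0.442 in kidney and 0 in small intestine. Fabp5, a fatty acid carrier, had 1255 in lung, with 26 in brain, 128 in colon, 446 in heart, 89.2 in kidney and 749.7 in small intestine, and Cidec, a lipid droplet protein, 461 in lung and 634 in the library labelled brain. Marco and Olr1, scavenger receptors, had 32.6 and 32.2 RPKM in lung and at most 0.393 and 0.224 elsewhere. The surface lectin Siglecf, a defining marker of these cells, was listed at 0 in lung, where 3 reads would have given 0.227 RPKM, with 4.13 in the library labelled brain. Pparg, the receptor that directs the development of these macrophages, had 0.0854 RPKM from 1 read, with 0.0621 in brain, 0 in colon, 1.29 in heart, 9.57 in kidney and 0 in small intestine.

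Interstitial macrophage and monocyte mRNAs were close to the other libraries, with 3 of 14 higher, none lower and a median of 0.34. The count was 1 with either scaling or without the library labelled colon, and under either scaling the median turned negative (-0.18 and -0.08). C1qa, a complement component of tissue macrophages, had 81.1 RPKM in lung, with 100.4 in brain, 32.9 in colon, 109 in heart, 144 in kidney and 76.4 in small intestine, and Csf1r, the receptor on which macrophages depend, 23.97 in lung, with 19.5 in brain, 13.6 in colon, 22.3 in heart, 22.3 in kidney and 39.8 in small intestine. Lung lay within the range of the others for both. Ccr2, a chemokine receptor of monocytes, was above every other library, with 12.7 in lung and at most 2.24 elsewhere. Apoe had 3375 in lung, with 2155 in brain, 2394 in colon, 1757 in heart, 1881 in kidney and 7959 in small intestine. Neither Ms4a7 nor Treml4 was listed in lung.

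Neutrophil mRNAs were higher for 3 of 10 members, and these 3 were above every other library. S100a9 had 319 RPKM in lung, with 0 in brain, 0.655 in colon, 6.13 in heart, 0 in kidney and 1.54 in small intestine. Ltf, lactoferrin of granules and secretions, had 114 in lung, with 3.55 in brain, 0.314 in colon, 2.59 in heart, 0.124 in kidney and 1.73 in small intestine, and Ngp, a granule protein, 71.8 in lung, with 0 in brain, 0.886 in colon, 0.976 in heart, 0 in kidney and 9.4 in small intestine. The surface markers Ly6g and Cxcr2, the collagenase Mmp8 and the secreted Retnlg had no reads in lung. Of 15 T and NK cell mRNAs, 8 were higher and 4 had no reads. Ccl5, a chemokine of activated T cells, had 18.5 RPKM in lung from 39 reads and 0 in every other library, Cd2 had 16.5 and at most 0.511 elsewhere, and Cd3e 14.6 with 10.6 in the library labelled brain. Gzma, a granzyme, was not set apart, with 51.9 in lung and 79.4 in that labelled brain. Cd3d, Klrb1c, Ncr1 and Prf1 had no reads in lung, and 3 reads would have given between 0.234 and 0.748 RPKM. Of 8 B cell mRNAs, 5 were higher. Cd79b, part of the B cell receptor, had 98.2 RPKM in lung, with 41.1 in brain, 2.83 in colon, 2.83 in heart, 6.87 in kidney and 1.97 in small intestine, and Ms4a1, which encodes CD20, had 30.4 in lung and 0 in every other library. Pax5, the factor that fixes B cell identity, had 1.54 from 14 reads.

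Presentation on MHC class II was higher for 6 of 11 members, or 3 with scaling by the median of ratios. Cd74, the invariant chain, had 877 RPKM in lung, with 348 in brain, 92.6 in colon, 82.2 in heart, 176 in kidney and 17.2 in small intestine. H2-Ab1 had 345 in lung, with 182 in brain, 79.6 in colon, 52.3 in heart, 297 in kidney and 10.5 in small intestine, so the library labelled kidney came close. H2-Aa had 64.8 in lung, with 17.8 in brain, 7.804 in colon, 9.71 in heart, 13.9 in kidney and 1.87 in small intestine, and H2-Eb1 112 in lung and 73.5 in the library labelled brain. H2-DMb2, H2-Ob and H2-Oa had no reads in lung. All 6 mRNAs of red blood cells were higher. Hbb-bs, a beta globin, had 309 RPKM in lung, with 0.213 in brain, 18.6 in colon, 13.6 in heart, 4.78 in kidney and 0 in small intestine, and Alas2, which starts haem synthesis in erythroid cells, 75.4 in lung and 42.1 in the library labelled colon. Globin copies are nearly identical, and with multi-mapped reads left out their levels are uncertain. The red blood cell list took 0.0375% of the lung reads and 0.000277 to 0.0205% elsewhere, and the part of blood left in the tissue in the leukocyte results was not tested.

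Defence proteins of airway and alveolus were higher for 14 of 19 members, with a median of 5.64, and 7 of the 14 were also in the epithelial lists. Outside the epithelial lists, Wfdc2, a secreted protease inhibitor, had 1608 RPKM in lung, with 36.4 in brain, 424 in colon, 22.7 in heart, 342 in kidney and 4.51 in small intestine. Lyz2, the lysozyme of alveolar macrophages and type 2 cells, was also in the alveolar type 2 list. It had 727 in lung, with 1.27 in brain, 11.5 in colon, 50.6 in heart, 8.02 in kidney and 1.18 in small intestine. Lyz1, the lysozyme of Paneth cells, had 65.6 in lung and 149 in the library labelled brain. The 2 lysozymes are similar enough for their reads to be uncertain. Lcn2, a siderophore binder, had 93.6 in lung and at most 0.611 elsewhere. Pigr, which carries IgA across epithelia, was not higher, with 36.02 in lung, 1944 in kidney and 1032 in brain. Ccl17 and Cxcl5 had no reads in lung.

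Of 18 mRNAs of surfactant lipid synthesis and transport, 10 were higher and 1 lower. The count was 5 with either scaling and 6 without heart, so it rested on the scaling and on the heart library. Fasn, fatty acid synthase, had 243 RPKM in lung, with 26.5 in brain, 45.4 in colon, 23.1 in heart, 32 in kidney and 23.9 in small intestine, and was above every other library. Lpcat1, the acyltransferase that makes dipalmitoyl phosphatidylcholine, had 181 in lung, with 0.235 in brain, 2.36 in colon, 4.65 in heart, 11.03 in kidney and 15.9 in small intestine. Acly, which supplies cytosolic acetyl-CoA, had 187 in lung, with 50.99 in brain, 62.7 in colon, 16.5 in heart, 62.1 in kidney and 29.3 in small intestine. Dbi, an acyl-CoA binder, had 789.9 in lung and 2101 in the library labelled colon. Chpt1, a cholinephosphotransferase at the last step of phosphatidylcholine synthesis, was the lower one, with 0.106 RPKM from 1 read in lung and 10.96 in brain, 76.9 in colon, 46.6 in heart, 7.795 in kidney and 13.4 in small intestine.

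Xenobiotic metabolism was higher for 14 of 18 members, 8 of them above every other library, with none lower and a median of 4.25. Beside Cbr2 and Cyp2f2, Ces1d had 905 RPKM in lung. Gstm1, a glutathione transferase, had 1668 in lung and 3858 in the library labelled colon. Gsto1 had the smallest difference, with 99.4 in lung and 157 in brain, 62.9 in colon, 97.4 in heart, 104 in kidney and 12.5 in small intestine. In the ion and water transport list, 8 of 14 were higher and 2 lower, with a median of 2.66, and 2 were above every other library. Without the library labelled small intestine, 6 were higher and the median was 1.66. Slc34a2 had the highest density in lung, and Aqp1, the water channel of capillary endothelium, had 479 RPKM in lung, with 149.7 in brain, 610.4 in colon, 97.98 in heart, 78.4 in kidney and 2.11 in small intestine. Among the lower mRNAs was Atp1b1, a beta subunit of the sodium pump, which drives the clearance of alveolar fluid. It had 649 in lung, with 4003 in brain, 4490.3 in colon, 875 in heart, 3199 in kidney and 5572 in small intestine, and lung was the lowest library.

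Of 22 transcription factors with known roles in the lung, 12 were higher, none lower and 2 had no reads. Nkx2-1, the factor that sets the identity of lung epithelium, had 64.4 RPKM in lung, with 0 in brain, 0.398 in colon, 0.657 in heart, 0.118 in kidney and 0 in small intestine, the largest difference of the list (5.76). Tcf21, a mesenchymal factor of the lung, had 52.5 in lung, with 0.3502 in brain, 7.85 in colon, 6.37 in heart, 13.5 in kidney and 0 in small intestine. Ehf and Klf5, epithelial factors shared with other organs, were not higher, with 137 and 90.98 RPKM in lung against 265 in kidney and 1179 in brain. Cebpa, which matures type 2 cells, and Sox2, a factor of the conducting airway, had no reads in lung, where 3 reads would have given 0.3603 and 0.406 RPKM.

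Heart muscle mRNAs were checked because the lung lies beside the heart. Of 12, 3 were higher in lung than the mean of the other 5, 2 were lower and the median was 0.06, a value that turned negative (-0.39) with scaling by the median of ratios. Heart was among the 5 averaged, and without it 6 were higher, none was lower and the median was 1.87, while against the median of the other 5 it was 1.67. The 3 were the atrial myosin light chains Myl4 and Myl7 and the atrial natriuretic peptide Nppa. Myl4 had 527 RPKM in lung, with 5.36 in brain, 13.8 in colon, 4547 in heart, 5.47 in kidney and 113 in small intestine. Myl7 had 426 in lung, with 0 in brain, 21.1 in colon, 4983 in heart, 11.3 in kidney and 2.49 in small intestine. Nppa had 207 in lung, with 0.825 in brain, 28.7 in colon, 3306 in heart, 4.05 in kidney and 1.15 in small intestine. Lung was the second highest library for each, and heart was far above it. The troponin Tnnt2, not special to the atrium, had 193 in lung, with 7.26 in brain, 105 in colon, 20788 in heart, 20.8 in kidney and 13.3 in small intestine. Lung was again the second highest library. Outside Myl4, Myl7 and Nppa, lung held at most 1.17% of the heart level of a list member (Myh6), against at least 6.26% for those 3. The ventricular light chain Myl2 had 3.43 RPKM from 14 reads in lung, with 3.03 in brain, 113 in colon, 17347 in heart, 23.5 in kidney and 7.18 in small intestine, so lung held 0.0198% of the heart level of Myl2, against 11.6% of that of Myl4. Sln, sarcolipin of atrial muscle, was listed at 0 in lung and had 272 in heart. The list took 0.141% of the lung reads, 10.1% of the heart reads and at most 0.0691% in the other 4. The part of heart tissue in the lung library was not tested.

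**Figure D5:**
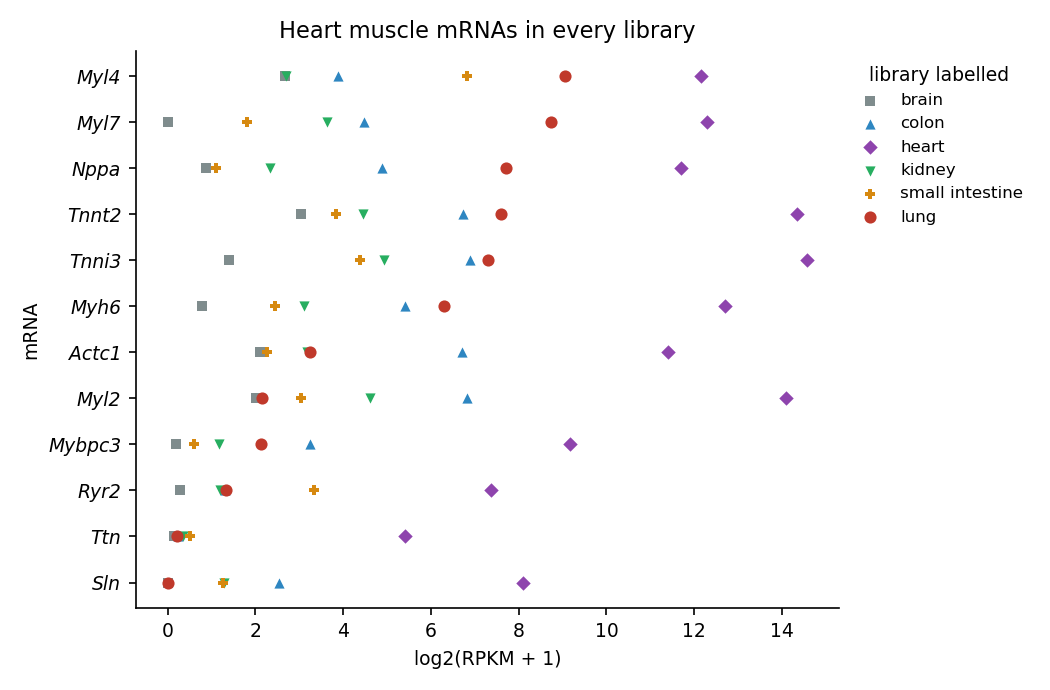
The 12 heart muscle mRNAs are shown in rows ordered by their lung level, with log2(RPKM + 1) on the x axis and 1 symbol for each library. Red circles (lung) come second to purple diamonds (heart) for Myl4, Myl7, Nppa and Tnnt2, and lie among the remaining libraries for Myl2.

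The remaining lists of neighbouring or distant tissues had few higher members. None of 8 cartilage mRNAs was higher, and 5 of them had no reads. Col2a1, the main collagen of cartilage, had 5.68 RPKM in lung, with 0.0422 in brain, 0.448 in colon, 1.48 in heart, 0.0887 in kidney and 3.81 in small intestine. Of 6 mRNAs of oesophagus and thyroid, 2 were higher, the oesophageal keratins Krt13 with 10.3 and at most 0.0717 elsewhere, and Krt4 with 11.8 and 7.94 in the library labelled brain. Of 6 thymus mRNAs, 2 were higher and the defining Rag2, Dntt and Ptcra had no reads. In the list of gut, kidney, brain and liver, none of 13 was higher and 5 were lower, with a median of -1.02, though 4 were higher against heart alone. Alb, serum albumin, had 83.3 RPKM in lung, with 28.8 in brain, 375 in colon, 3.75 in heart, 633 in kidney and 40.02 in small intestine.

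Of the 1398 lower mRNAs, 783 had no reads in lung, and 597 were not listed there. The 10 most negative differences ran from -6.87 to -6.04. Several were intestinal mRNAs, such as Muc13, a membrane mucin, with 1.13 RPKM in lung and 8294 in brain, 2.71 in colon, 34.9 in heart, 5230.2 in kidney and 71 in small intestine, Krt20, a keratin of mature enterocytes, with 1.401 in lung and 10346 in the library labelled brain, and Guca2a, the hormone guanylin, with 0.372 and 4628 in that labelled kidney. Sv2a, a synaptic vesicle protein, was listed at 0 in lung and had 3375 in that labelled small intestine. The secreted Cgref1 had 0.308 in lung, with 322 in brain, 355 in colon, 3.06 in heart, 305 in kidney and 34.1 in small intestine. Foxe1, a forkhead factor of the thyroid, had 0.232 RPKM from 2 reads in lung, with 34.6 in brain, 63.8 in colon, 156 in heart, 113 in kidney and 155 in small intestine. The others included mRNAs that every cell uses. Hikeshi, a nuclear import factor for Hsp70, was not listed in lung and had 39.8 in brain, 95.03 in colon, 557 in heart, 45.3 in kidney and 214 in small intestine. Prxl2b, a peroxiredoxin-like enzyme, was not listed in lung and had 369.7 in brain, 59.6 in colon, 297 in heart, 26.2 in kidney and 104 in small intestine. Atp5mk, a small subunit of ATP synthase, was not listed in lung and had 74.03 in brain, 51.03 in colon, 226 in heart, 50.02 in kidney and 44.4 in small intestine. At the depth of the lung library, 3 reads would have given 0.657, 0.644 and 2.23 RPKM of Hikeshi, Prxl2b and Atp5mk.

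Such mRNAs were counted, after their values had been seen, as those with at least 10 RPKM in all of the other 5 libraries and under 1 in the lung. There were 43 of 2644 (1.63%), and 23 of them had no reads. The same count was 69 of 2745 for the library labelled brain, 16 of 2852 for small intestine, 12 for colon, 2 for heart and 0 for kidney. Members included Tomm20, the import receptor of the outer mitochondrial membrane, which was listed at 0 in lung and had 30.3 in brain, 34.7 in colon, 56.7 in heart, 92.8 in kidney and 93.5 in small intestine, and Ndufs8, a subunit of complex I, which was not listed in lung and had 25.7 in brain, 62.5 in colon, 67.8 in heart, 10.4 in kidney and 16.04 in small intestine. Since genes of general use were at 0, mRNAs with no reads in lung entered the counts of lower mRNAs only by the size of the difference, and a 0 is given as the listed value and not as absence.

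Over all mRNAs, the Pearson correlation of log2(RPKM + 1) between lung and another library was 0.757 with heart, 0.746 with kidney, 0.737 with colon, 0.692 with brain and 0.601 with small intestine (n = 18437 mRNAs, which share libraries and depth, so these are descriptions). The median CDS length was 1267.5 bases for the higher mRNAs, 1338 for those above every other library, 1033.5 for the lower and 1320 for all. For mRNAs with reads in lung it was 1506, so the higher mRNAs and those above every other library were shorter than these. For 36 of the 545 mRNAs above every other library (6.61%), the next listed mRNA in order of position on the chromosome was also one of them, against 2.96% over all mRNAs. Such pairs need not be close, and the gap reached 1148640 bases for St8sia4 and Slco4c1. Among these pairs were Gucy1b1 and Gucy1a1, 17711 bases apart on chromosome 3, Cd8b1 and Cd8a on chromosome 6, Tbx2 and Tbx4 on chromosome 11, and Hbb-bt and Hbb-bs on chromosome 7. These pairs were picked out after the values were seen.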

How the data were processed

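Ribosome-protected fragments were sequenced from 6 tissues of C57BL/6J mice, 1 library each. The authors deposited 1 table per library of RPKM on CDSs. The submitters' processing notes name cutadapt, STAR and GRCm39, with no versions. The study's methods, written for its macrophage libraries and taken to hold here, discarded reads under 15 nt, left out multi-mapped reads and those with more than 2 mismatches, and used Ensembl release 107. RPKM times CDS length gave whole reads (within 0.01 read) for every value. No molecular identifiers were used, so the 95% Wilson and Poisson intervals and the 3-read limits cover counting error only. Gene names came from GENCODE M39, which held 18424 of 18437 gene IDs, and promoters from RefSeq (GRCm38.p6). Reads that match similar copies equally (Ear1 and Ear2, Lyz1 and Lyz2, the globins) would be left out as multi-mapped, so their levels are uncertain.

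The difference was log2(RPKM + 1) in lung minus the mean of the other 5. This scale understates the change of low mRNAs. Groups came from the labels, and no test was run with 1 library per tissue. The members and lists were chosen with earlier results of these data known. Named were the 4 markers, the 10 highest RPKM in lung, the 20 largest differences among mRNAs with at least 10 reads in lung, the 10 most negative among those with at least 10 reads in another library, and from each list up to 4 members with the highest RPKM in lung, those with the largest and smallest difference and those with no reads in lung. Agt, Ear1, Lcn2, Lyz1, Lyz2, Marco, Napsa, Olr1, Tomm20 and Ndufs8 were added after their values were seen, as were members given only in a listing. Pifo, Cd200r4, S100a8, Camp, Klrd1, Krt6a and Sprr1a were not analysed here. Values of a few list members are not reported here. The alternatives changed the pseudocount, a filter on low values, the summary of the other libraries, the scaling, the total used, the depth, the libraries compared and the size of difference called. Python 3.11.15, numpy 2.4.6, pandas 2.3.3, scipy 1.17.1 and matplotlib 3.10.9 were used, and the calculation was tested on simulated data.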

Additional observations from a re-analysis of the deposited data

How the results depend on the processing

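The counts moved most with the pseudocount and the size of difference called. With a pseudocount of 0.1, 2853 mRNAs were higher and 3462 lower, and with 5, 750 were higher, 367 lower and 252 above every other library. Called at 1 on the log2 scale, 4329 were higher and 3584 lower, with 1475 mRNAs above every other library, and called at 3, 661, 503 and 203, with 67 members of the function lists higher. Scaling by the median of ratios left 1156 higher, all of them among the 1822, with 1646 lower and 349 above every other library. Of all calls, 56.6% were higher in the main setting, 41.3% with the median of ratios, 44.0% with 75th percentile scaling, 45.2% with a pseudocount of 0.1 and 67.1% with 5. The median over all mRNAs was -0.15 and -0.11 under the respective scalings. Against heart alone 2240 were above it, and without the libraries labelled brain and kidney 913 were above every other. Leaving out each of the other libraries in turn gave 1793 to 1926 higher, 1340 to 1516 lower, 639 to 692 above every other library, 169 to 175 cell type list members and 92 to 113 function list members. Against heart alone the differences of Myl4 (-3.11), Myl7 (-3.54) and Nppa (-3.99) turned negative, since heart held more of each. Of the single mRNAs named whose main difference was at least 2 in size, these were the 3 that changed sign under the alternatives run. Smaller differences that changed sign, such as that of Tnnt2 against heart alone, were not counted. The cause of the other shifts was not tested. At the depth of the lung library, an mRNA with no reads could still have the density that 3 reads would give, and none was called absent. No paired analysis was possible because each tissue has 1 library, so the groups share fewer than 2 replicate numbers.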

Other observations

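Of the 545 mRNAs above every other library, 415 were in none of the lists, and the ones named here were picked out after their values were seen. Further proteins of cilia were among them. Pierce1, which helps to dock outer dynein arms, had 225 RPKM in lung, with 0 in brain, 0.443 in colon, 1.46 in heart, 0 in kidney and 1.04 in small intestine. Cfap144, another ciliary protein, had 243 in lung, with 0 in brain, 1.62 in colon, 2.08 in heart, 0 in kidney and 6.68 in small intestine, and Rsph4a, of the radial spokes, 47.3 in lung and at most 3.11 elsewhere. Endothelial and vascular mRNAs were found as well. Gja4, the connexin of arterial endothelium, had 891 RPKM in lung, with 18.9 in brain, 7.999 in colon, 27.03 in heart, 15.6 in kidney and 12.7 in small intestine. Adgrf5, an adhesion receptor that keeps surfactant pools in check, had 1278 in lung, with 21.6 in brain, 120.4 in colon, 87.5 in heart, 34.6 in kidney and 12.8 in small intestine. Pde5a, the phosphodiesterase that breaks down cyclic GMP, had 205 in lung, with 41.96 in brain, 2.57 in colon, 1.32 in heart, 26.6 in kidney and 2.27 in small intestine, and Icam1, an adhesion molecule for leukocytes, 923 in lung, with 21.7 in brain, 22.9 in colon, 22.4 in heart, 21.04 in kidney and 2.35 in small intestine.

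The terminal complement pathway was represented by C7, with 692 RPKM in lung and 15.1 in brain, 19.4 in colon, 10.03 in heart, 1.72 in kidney and 0 in small intestine, and by C6, with 22.3 in lung and at most 0.305 elsewhere. Haptoglobin (Hp), which binds free haemoglobin, had 344 in lung, with 0.452 in brain, 15.99 in colon, 6.22 in heart, 7.47 in kidney and 0 in small intestine. Several mRNAs of blood cells that the lists left out were also above every other library. Hdc, which makes histamine in mast cells and basophils, had 82.8 RPKM in lung and at most 2.11 elsewhere. Prg2, the major basic protein of eosinophils, had 61.1 and at most 4.302, and Tubb1, the tubulin of platelets and megakaryocytes, 51.2 and at most 3.79. The fast skeletal muscle mRNAs Tnnc2 and Mylpf had 20.5 and 21.4 RPKM in lung, from 76 and 84 reads, and at most 0.273 and 1.21 elsewhere.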
